A study of Mus musculus with 192 samples.

Results

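The left and right cortex of the same nontransgenic (NON) mice were compared across a panel of 43 target genes of amylin, insulin and leptin signalling. A pair was made of the left and the right cortex pool that carried the same time point and the same pool number, and hence held RNA of the same mice. In all, 17 pairs met this rule, giving 34 of the 192 pools in the series. There were 5 pairs at T1, 7 at T2 and 5 at T3. The NON mice were male FVB/n mice without the transgene of the L44 line, bred from matings of hemizygous (HEM) parents. In HEM and homozygous (HOM) L44 mice, a transgene for human amylin with 3 proline substitutions is driven by the rat insulin 2 promoter. No treatment was given, and the same mice gave both sides. NON mice were 99 to 101 days old at T1, 90 to 286 days at T2 and 400 to 406 days at T3, HEM and HOM mice were 99 to 101, 90 to 271 and 400 to 407 days old, and T2 in the study is the onset of diabetes in the transgenic mice. The 17 pairs held 31 mice, 14 of the pairs being equal mixtures of RNA of 2 mice and 3 being 1 mouse each. Collection was in the morning (AM) for 6 pairs and in the afternoon (PM) for 11 pairs. At T3, the NON pools 1, 7 and 8/9 were labelled as previously diabetic. RNA was counted directly, without amplification, by hybridisation to coloured barcode probes (nCounter).

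Amylin is a pancreatic hormone that acts through the calcitonin receptor joined to a receptor activity-modifying protein (RAMP). Insulin acts through its receptor and the receptor substrates on phosphoinositide 3-kinase and the kinase Akt, and leptin acts through the Janus kinase Jak2 and the transcription factor Stat3. The cortex expresses most of the intracellular parts of these pathways, whereas several of the peptides that regulate appetite are made mainly by hypothalamic neurons. Setting the cortices of the same mice side by side shows how far 2 pieces of like tissue differed when genotype, age, housing and hour of collection were shared. Because each pool was bulk tissue, a lower count could come from fewer cells of a type or from less RNA per cell, which cannot be told apart.

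Count depth differed between the sides before any gene was considered. At T2, the total count of the 43 target genes was higher in the right pool in 7 of 7 pairs, the medians being 351996 on the left and 461879 on the right. The left totals at T2 lay between 276108 and 368893 and the right totals between 413972 and 499537, so the sides did not overlap. The right pools were 1.40-fold deeper (log2 ratio 0.49 ± 0.24, SD, n = 7 pairs; exact two-sided sign-flip permutation p = 0.0156, the smallest that 7 pairs can give; Benjamini-Hochberg adjusted p = 0.0937 over 12 depth tests). At T1, the right pool was deeper in 3 of 5 pairs and the ratio was 1.11, with medians of 362898 on the left and 414121 on the right (exact permutation p = 0.375, adjusted p = 0.5).

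At T3, all pools were shallower, between 51446 and 151941 on the left and between 92895 and 179716 on the right. The right pool was deeper in 3 of 5 of these pairs, with a ratio of 1.25 (log2 ratio 0.32 ± 0.94, SD; exact permutation p = 0.562, adjusted p = 0.614), and pool 1 of T3 had the widest gap, with 51446 on the left and 167910 on the right. The right over left ratio was 3.26 in pool 1, 1.61 in 3/4, 1.18 in 7, 0.74 in 5/6 and 0.65 in 8/9. The mean ratio thus rested largely on pool 1. Sets of 5 pairs cannot give an exact p below 0.063.

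**Figure D1:**
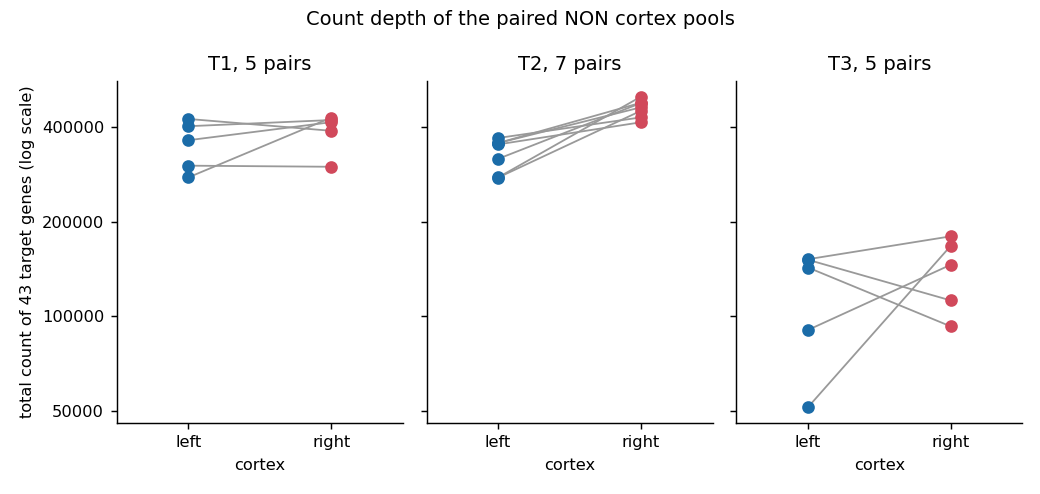
Total count of the 43 target genes (log axis) in the left (blue) and right (red) cortex pool of each NON pair at T1, T2 and T3, with a line joining the pools of the same mice. All 7 lines rise at T2, whereas 3 of 5 rise at T1 and at T3.

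The reference genes, which were used for scaling, moved with the totals. Their geometric mean was 1.41-fold higher on the right at T2 (7 of 7 pairs), 1.13-fold at T1 (4 of 5 pairs) and 1.26-fold at T3 (3 of 5 pairs). The positive control probes, which detect synthetic RNA added in equal amount to each assay, did not at T1 or T2. Their geometric mean at T2 had a right over left ratio of 0.863 and was higher on the right in 2 of 7 pairs (exact permutation p = 0.0938, adjusted p = 0.161), and at T1 the ratio was 1.02. At T3, it was 1.26, with the right pool higher in 5 of 5 pairs (exact permutation p = 0.063, adjusted p = 0.125). The amount of RNA and the side cannot be told apart at T2, since every right pool was the deeper of its pair. No label gave the run of a pool, so the part of the run was not tested. All gene values below are normalised counts, each count being divided by the geometric mean of the 3 reference genes of its pool and multiplied by the mean of this reference level over the 34 pools. The mean log2 right minus left values of the 3 reference genes, relative to their own geometric mean, were -0.019, 0.032 and -0.012. Their SDs across the NON pairs were 0.049, 0.067 and 0.073.

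After this scaling, right and left cortex were closely alike. Over all 17 pairs, 4 of the 43 target genes (9.30%) passed the test at an adjusted p below 0.05 (edgeR quasi-likelihood test with the pair as a block, Benjamini-Hochberg adjustment), and all 4 were lower in the right cortex. They were Akt1, a kinase of the insulin pathway; Adrbk1, which encodes the G protein-coupled receptor kinase GRK2 that switches off activated receptors; Ramp1, a partner of the calcitonin receptor; and Hdac5, a histone deacetylase. The largest of these differences was less than 10%, and none of the 43 genes reached a log2 ratio of 1 in either direction. With TMM scaling, 4 genes were called, Akt1, Adrbk1 and Ramp1 being lower and the insulin receptor gene Ir higher on the right. Hdac5 was not called with TMM. The median log2 right minus left value of all 43 genes was -0.0046, with 22 genes below and 21 above 0. Of 36 genes that were at or below background in no more than 25% of the pools, 29 lay within 0.1 of 0 on the log2 scale, and the median standard error was 0.032.

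**Figure D2:**
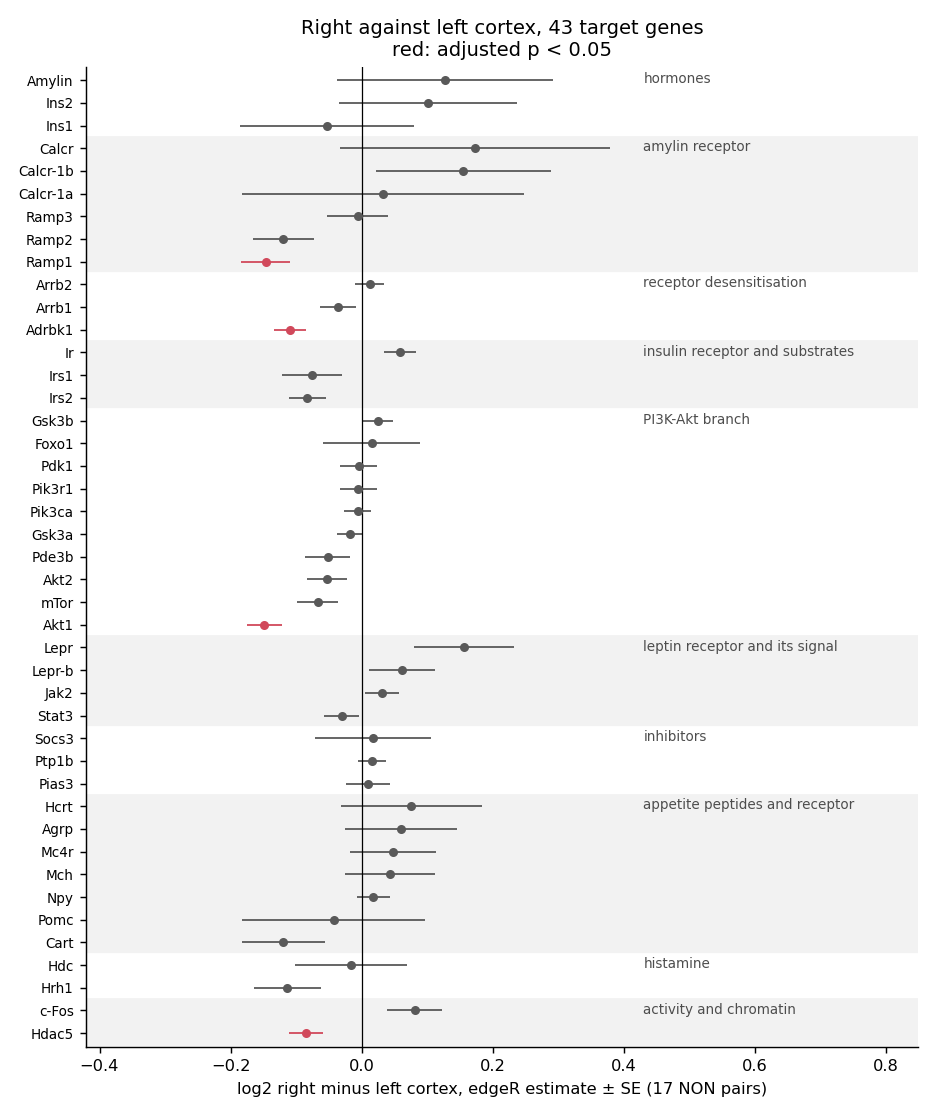
Log2 right minus left cortex of the 43 target genes over 17 NON pairs, as the edgeR estimate with its standard error (bars), grouped by role in shaded bands. The 4 genes with an adjusted p below 0.05 (red) all lie to the left of 0, and the widest bars belong to hormone and calcitonin receptor probes near background.

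The 3 hormone genes were near background on both sides. Amylin (listed as Iapp) was at or below the background limit, the mean plus 2 SD of a pool's negative control probes, in 31 of 34 pools, Ins1 in 30 and Ins2 in 31. None of the 3 passed the test, and their median log2 ratio was 0.10, with 0.13 ± 0.16 (SE) for Amylin and -0.054 ± 0.13 for Ins1. These values carry no direction at this depth.

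Of the 6 amylin receptor probes, Ramp1 was lower on the right and 5 did not pass the test, against 4 of 43 genes (9.30%) called in the panel. The median of the 6 was 0.013. The calcitonin receptor probes were low, with median raw counts of 26.5 for Calcr, 21.0 for Calcr-1b and 10.5 for Calcr-1a, the last being at or below background in 34 of 34 pools. Calcr had the largest log2 ratio of the group, 0.17 ± 0.21 (SE; adjusted p = 0.723, edgeR), and Ramp3 the smallest, -0.0061 ± 0.047. Calcr and Calcr-1a carried the same accession in the deposited file and were not taken as independent transcripts.

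Ramp1 was among the better expressed members of the panel, with left normalised counts from 7970.0 to 14752 (median 9274) and right counts from 6858 to 13813 (median 8130.4). At T2, the left pools held 10449 (pool 1/3), 8523 (2/15), 9274 (4/13), 8469 (5/10), 9156 (6/9), 8853 (7/8) and 8783 (11/14). Their right partners held 7747, 7353, 7586, 7087, 8829.9, 7875 and 6858 in the same order. The right pool was the lower one in 7 of 7 pairs, and the groups overlapped only through the right pool 6/9.

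Over all 17 pairs, Ramp1 was lower on the right by 9.65%, a log2 ratio of -0.15 ± 0.038 (SE; adjusted p = 0.0119, edgeR), and lower in 13 of 17 pairs. The ratio was -0.25 ± 0.052 at T2 (adjusted p = 0.00145), -0.12 ± 0.061 at T1 (adjusted p = 0.322) and -0.023 ± 0.062 at T3 (adjusted p = 0.949). The direction at T1 was mixed, pools 1/3 and 4/5 being higher on the right. The call over all pairs was lost when the 2nd reference gene was left out (adjusted p = 0.0650) and with depth as a covariate (adjusted p = 0.0959).

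In the receptor desensitisation group, Adrbk1 was lower on the right, and the arrestin genes Arrb1 and Arrb2, whose products bind phosphorylated receptors, were not called, so that 1 of 3 passed against 9.30% of the panel. The group median was -0.036, and the smallest ratio was that of Arrb2, 0.012 ± 0.022 (SE). Adrbk1 counts ranged from 10952 to 13769 on the left (median 12990.2) and from 8325 to 12685 on the right (median 12165).

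The 5 left pools of T3 had Adrbk1 counts of 13769 (pool 1), 13015 (3/4), 13227 (5/6), 13043 (7) and 13031 (8/9), against 12685, 12532, 12451, 12053 and 12214 on the right. The T3 groups did not overlap. All right pools were also below their partners at T2, with means of 11742 ± 578 (SD, n = 7) against 12889.6 ± 547.

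Adrbk1 was lower on the right in 16 of 17 pairs, by 7.28% or -0.11 ± 0.024 on the log2 scale (SE; adjusted p = 0.00403, edgeR). The ratio was -0.088, -0.14 and -0.094 at T1, T2 and T3, and among the single time points the T2 value alone passed (adjusted p = 0.0184, edgeR). This T2 call was lost with TMM (adjusted p = 0.117), without the pair block (adjusted p = 0.172) and without pool 5/10, 7/8 or 11/14 (adjusted p up to 0.0728). The exception was pool 6 of T1, with 11099 on the left and 11317 on the right. The T1 mean rested largely on pool 4/5, which had 10952 on the left and 8325.5 on the right.

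None of the 3 genes of the insulin receptor and its substrates was called in the edgeR fit with reference gene scaling, and their median log2 ratio was -0.076. Irs2, a docking protein of the insulin receptor, came closest at -0.083 ± 0.028 (SE; adjusted p = 0.0599, edgeR). Irs2 was called lower on the right with DESeq2, with depth as a covariate and without the 1st reference gene. Leaving out T1 pool 2/7 or T3 pool 1 also gave this call, as did the exact sign-flip permutation test (adjusted p = 0.0483). It was not called with TMM, limma or no pair block. The insulin receptor gene (Ir, listed as Insr) had the smallest absolute ratio of the 3, and it lay above 0 at 0.058 ± 0.025 (adjusted p = 0.165). With TMM scaling, Ir was called higher on the right.

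In the phosphoinositide 3-kinase and Akt group, 1 of 10 genes was called, against 4 of 43 (9.30%) in the panel, and the median was -0.012, with 8 genes below 0 against 22 of 43. The smallest ratio was that of Pdk1, -0.0046 ± 0.028 (SE). Pdk1 was placed in this group by its name alone, and whether its probe targets a kinase of this pathway was not checked. The group counts and the group median include Pdk1. Akt1 had the largest ratio of the group.

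The left pools had Akt1 counts of 9722, 10570.3, 9491, 9988 and 9871 at T1 (pools 1/3, 2/7, 4/5, 6 and 8/9), and their right partners 9169, 9822, 8502.5, 8933 and 8856.5. At T2, the left pools had 10823, 10269, 9879, 10027, 10139.8, 10453.5 and 10192 (pools 1/3, 2/15, 4/13, 5/10, 6/9, 7/8 and 11/14), and their right partners 9946, 8966, 9285, 7054, 9644, 9075 and 8477. At T3, the counts were 12562, 12373, 12569, 12584 and 12858 on the left (pools 1, 3/4, 5/6, 7 and 8/9) against 11811, 11919, 12462, 11938.5 and 11434 on the right. The right pool was below its partner in 17 of 17 pairs, although the 2 sides overlapped at each time point. The right pool 5/10 of T2 was the lowest of all.

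Akt1 was 9.79% lower on the right over all 17 pairs, a log2 ratio of -0.15 ± 0.027 (SE; adjusted p = 0.000649, edgeR). An exact two-sided sign-flip permutation test over the 17 pairs gave p = 1.53e-05, the smallest that 17 pairs allow, with adjusted p = 0.000656 over the 43 genes. The ratio was -0.13 ± 0.047 at T1 (adjusted p = 0.169, edgeR), -0.21 ± 0.040 at T2 (adjusted p = 0.00145) and -0.080 ± 0.047 at T3 (adjusted p = 0.477). In the 3 pairs whose left pool had the higher reference gene level, Akt1 was lower on the right in 3 of 3, by 0.089 on average on the log2 scale (mean -0.0887), and Adrbk1 in 3 of 3 (mean -0.0836). In the same 3 pairs, Ramp1 averaged 0.0014 and Hdac5 -0.0031, against -0.18 and -0.10 in the 14 pairs with the deeper right pool. This split was also one by time point, since the 3 pairs were 1 of T1 and 2 of T3 and all 7 pairs of T2 were among the 14. In the 7 pairs of T1 and T3 with the deeper right pool, Ramp1 averaged -0.10 and Hdac5 -0.039, with Akt1 at -0.11 and Adrbk1 at -0.094. The reference level that made this split is also the divisor of each normalised count, so the split and the ratios were not independent. With only 3 pairs in the smaller set, the split cannot decide the part of depth for any of these genes. The part of depth in these differences was not tested beyond the fit with depth as a covariate.

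**Figure D3:**
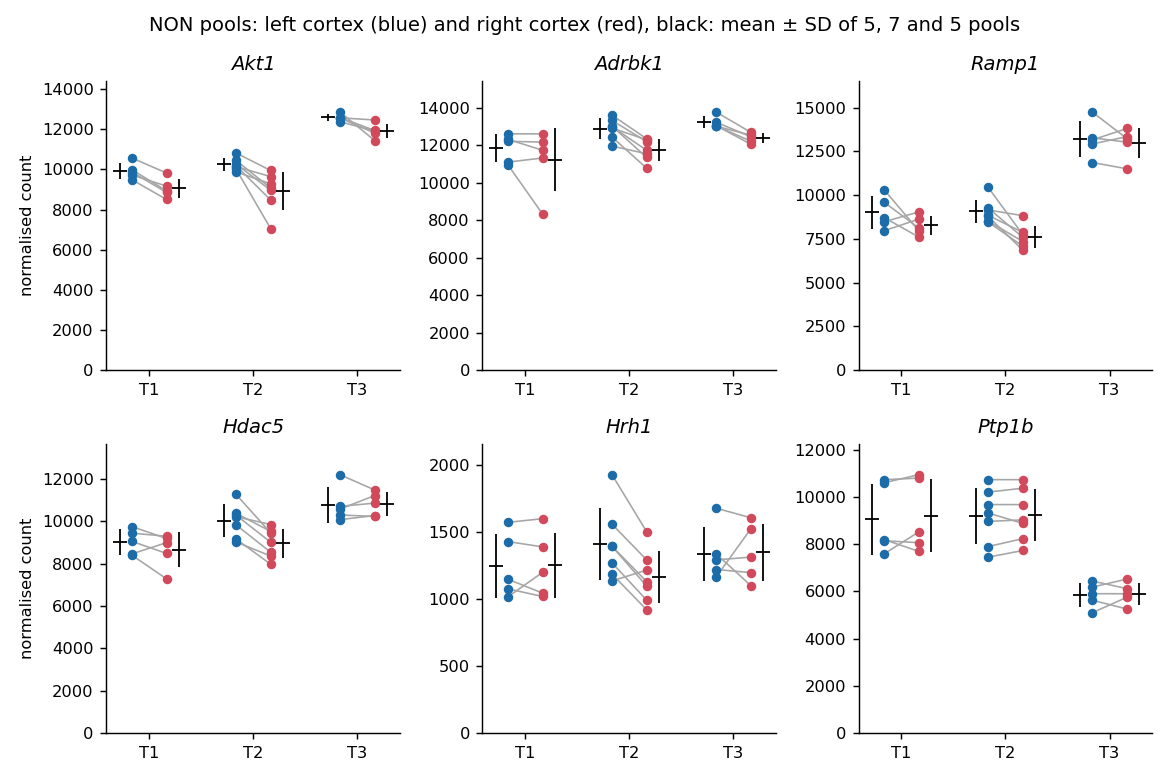
Normalised counts of the 6 genes called in the comparisons over all NON pairs, over T2 NON pairs or over all HEM and HOM pairs, in the left (blue) and right (red) cortex pool of each NON pair at T1, T2 and T3, with lines joining pools of the same mice and black marks for mean ± SD (n = 5, 7 and 5). Each Akt1 line falls from left to right, as do the T2 lines of Adrbk1, Ramp1 and Hdac5, and the Ptp1b lines run both ways.

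No gene of the leptin receptor and its signal passed the test (0 of 4, median 0.046). Lepr, the leptin receptor, had the largest ratio, 0.16 ± 0.076 (SE; adjusted p = 0.225, edgeR), and Stat3 the smallest, -0.030 ± 0.027. The 3 inhibitor genes were nearly level between the sides over all pairs, with a median of 0.016, from 0.0098 ± 0.033 for Pias3 to 0.018 ± 0.089 for Socs3. Ptp1b encodes a phosphatase that turns off the insulin and leptin receptors.

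The left pools held 8153, 10612.5, 7594, 8205 and 10744 Ptp1b counts at T1, and their right partners 8071, 10955, 8528, 7703 and 10812, in the pool order given for Akt1. At T2, the left pools held 10745.5, 7456, 9330.6, 7907, 8975, 10218 and 9689, and their right partners 10744, 7739.7, 8888, 8243, 9039.6, 10381 and 9686. At T3, the counts were 5098, 5906, 6445, 6186 and 5631 on the left against 5756, 5905, 6122, 6527 and 5258 on the right. The sides overlapped at each time point, and Ptp1b was higher on the right in 9 of 17 pairs (log2 ratio 0.016 ± 0.022, SE; adjusted p = 0.723, edgeR).

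The appetite group held 7 genes, none of which was called, with a median of 0.044. Cart, a peptide that lowers food intake, had the largest ratio, -0.12 ± 0.064 (SE; adjusted p = 0.262, edgeR), and Npy, a peptide that raises it and the gene with the highest median raw count of the panel in these pools, the smallest, 0.018 ± 0.025. Of the histamine genes, neither was called over all pairs. Hdc, which encodes the enzyme that makes histamine, stood at -0.016 ± 0.085 and Hrh1, the H1 receptor, at -0.11 ± 0.051 (adjusted p = 0.199).

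Hrh1 was called at T2. The left pools held 1929.6, 1187, 1395, 1271, 1136, 1560.1 and 1394 (pools 1/3, 2/15, 4/13, 5/10, 6/9, 7/8 and 11/14), and the right pools 1503, 919.5, 1130.1, 991, 1217, 1292 and 1097. The right pool was lower in 6 of 7 pairs, pool 6/9 being the exception, and the sides overlapped. The log2 ratio was -0.27 ± 0.066 at T2 (SE; adjusted p = 0.00548, edgeR), 0.0026 ± 0.079 at T1 and 0.0083 ± 0.083 at T3.

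Hdac5 was lower on the right over all pairs by 5.67%, or -0.084 ± 0.026 on the log2 scale (SE; adjusted p = 0.0394, edgeR), and in 13 of 17 pairs. This call was kept in 6 of 12 alternatives and lost in the others, among them TMM (adjusted p = 0.122), depth as a covariate (adjusted p = 0.0959) and no pair block (adjusted p = 0.278). Its counts ranged from 8403 to 12206 on the left (median 10082) and from 7284 to 11485 on the right (median 9298). At T2, the left pools held 11282, 9029, 10296, 9169, 10227, 10385 and 9840.2 in the pool order given for Hrh1. The right pools held 9457, 8362, 9020.1, 7978, 9850.5, 9528 and 8544, each below its partner, with overlap between the sides. The T2 ratio was -0.16 ± 0.034 (adjusted p = 0.00145), against -0.064 ± 0.040 at T1 and 0.0069 ± 0.040 at T3. The call over all pairs was lost on leaving out any 1 of 11 pairs, namely each of the 7 of T2, 4/5, 6 and 8/9 of T1 and 5/6 of T3 (adjusted p up to 0.0961).

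At T2 taken alone, 5 of 43 genes (11.6%) passed the test, all lower on the right: Akt1, Ramp1, Hdac5, Hrh1 and Adrbk1. At T1 and T3, 0 of 43 genes (0%) passed the edgeR test, with 7 and 5 genes at an unadjusted p below 0.05, against 12 at T2. DESeq2 and limma also called 0 genes at both of these times. With TMM scaling, 7 genes were called at T2, 4 lower and 3 higher on the right, and Adrbk1 was not among them. Without the pair block, Akt1 and Ramp1 were the 2 genes called. When the positive control probes set the scale in place of the reference genes, the median of all genes at T2 moved to 0.70 and 42 genes were called, 0 lower and 42 higher, so that the lower level of the 5 genes is a statement relative to the other genes of the same pool. On that scale, Akt1 stood at 0.50, Ramp1 at 0.46, Hdac5 at 0.55, Hrh1 at 0.44 and Adrbk1 at 0.58, each above 0 but below the median of 0.70. The standard errors were close at the 3 times (0.061, 0.052 and 0.062 for Ramp1 at T1, T2 and T3), and a difference between the time points was not shown. In the test of that difference, 0 of 43 genes (0%) passed (edgeR; lowest adjusted p = 0.101, with 10 genes at an unadjusted p below 0.05), while DESeq2 called 1 gene and limma called 0. For Hdac5, T2 minus T3 was -0.17 ± 0.053 (SE; adjusted p = 0.114, edgeR) and for Ramp1 -0.23 ± 0.080 (adjusted p = 0.114).

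The direction was also taken apart by hour of collection. Akt1 averaged -0.12 ± 0.055 (SD, n = 6) in AM pairs and -0.16 ± 0.13 (SD, n = 11) in PM pairs, and was lower on the right in 6 of 6 and 11 of 11. Adrbk1 was lower in 6 of 6 and 10 of 11, Ramp1 in 5 of 6 and 8 of 11, and Hdac5 in 4 of 6 and 9 of 11.

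The same contrast was then set beside that in 28 pairs of HEM and HOM mice, which are other mice. Of these, 15 were AM and 10 PM pairs, and the T1 HEM pools 1/2, 3/4 and 5/6 had no collection time given. Over these 28 pairs, 1 of 43 genes (2.33%) passed the edgeR test. It was Ptp1b, 4.20% higher on the right (log2 ratio 0.059 ± 0.016, SE; adjusted p = 0.0166) and higher in 22 of 28 pairs. The call was kept in 7 of 11 alternatives and lost with TMM, with positive controls as scale, without the 3rd reference gene and without the pair block (adjusted p up to 0.797). Akt1 stood at -0.015 and Ramp1 at -0.0026 over these pairs. In the T1 HEM pairs without a collection time, Akt1 was at 0.40, 0.24 and 0.15, and in T1 HEM 9/10 at -0.11. In the direct test of the transgenic against the NON ratio, 0 of 43 genes (0%) passed (edgeR; lowest adjusted p = 0.269, with 6 genes at an unadjusted p below 0.05), and DESeq2 and limma also called 0. The difference for Akt1 was 0.13 ± 0.052 (SE; adjusted p = 0.269).

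The mean over the transgenic pairs joined time points that ran in opposite directions, which was seen after the data had been examined and then fitted with a term per time point. At T2, 12 of 43 genes (27.9%) passed in the 10 transgenic pairs (edgeR), 6 lower and 6 higher on the right, and they included all 5 genes called in the T2 NON pairs, in the same direction. Akt1 was at -0.22 ± 0.038 (SE; lower in 10 of 10 pairs; adjusted p = 1.25e-05, edgeR), Ramp1 at -0.30 ± 0.043 (10 of 10; adjusted p = 5.88e-07), Hrh1 at -0.36 ± 0.058 (10 of 10; adjusted p = 2.64e-06), Adrbk1 at -0.14 ± 0.032 (9 of 10; adjusted p = 0.000939) and Hdac5 at -0.11 ± 0.033 (9 of 10; adjusted p = 0.00815). Irs2 was the other gene that was lower. The 6 that were higher were Gsk3b, a kinase held in check by Akt, at 0.10, and Pik3ca at 0.10, Npy at 0.12, Jak2 at 0.13, Ptp1b at 0.075 and Ir at 0.11. The transgenic minus NON difference at T2 was -0.011 ± 0.060 for Akt1 (SE; adjusted p = 0.920, edgeR) and -0.049 ± 0.068 for Ramp1 (adjusted p = 0.887).

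The depth of the transgenic T2 pairs ran the same way as that of the NON pairs. The right pool was 1.39-fold deeper on average, and deeper in 9 of 10 pairs. In the T2 NON pairs, the 5 genes remained called with depth as a covariate (log2 ratio -0.22 for Akt1, -0.24 for Ramp1, -0.18 for Hdac5, -0.32 for Hrh1 and -0.15 for Adrbk1; adjusted p from 0.00499 to 0.0276, edgeR). The right pool was the deeper one in each T2 NON pair, and the depth term was shared with T1 and T3. This fit therefore cannot tell depth from side at T2. From the smallest to the largest right over left ratio of the reference level, the log2 ratio of Akt1 was -0.20 in pool 7/8 (1.18-fold), -0.27 in 11/14 (1.19-fold), -0.51 in 5/10 (1.34-fold), -0.09 in 4/13 (1.36-fold), -0.07 in 6/9 (1.52-fold), -0.12 in 1/3 (1.68-fold) and -0.20 in 2/15 (1.72-fold). The fit with depth was not run for the transgenic T2 pairs alone, and the part of the run was not tested.

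At T3, 6 genes (14.0%) passed in the 10 transgenic pairs (edgeR), all higher on the right. Ramp1 was at 0.30 ± 0.044 (SE; adjusted p = 9.36e-07), Hdac5 at 0.15 ± 0.033 (adjusted p = 0.000717), Akt1 at 0.14 ± 0.038, Irs2 at 0.13 ± 0.037 and Hrh1 at 0.20 ± 0.059 (each adjusted p = 0.0123), with Mch, a hypothalamic peptide, at 0.40 ± 0.14 (adjusted p = 0.0465). Within genotypes, Akt1 averaged 0.043 ± 0.12 (SD, n = 5 pairs; higher in 3 of 5) in HEM and 0.23 ± 0.024 (5 of 5) in HOM pairs, and Hrh1 0.16 ± 0.28 (2 of 5) and 0.23 ± 0.10 (5 of 5). Ramp1 was higher on the right in 4 of 5 HEM and 5 of 5 HOM pairs, Hdac5 in 3 and 5, and Irs2 in 4 and 5. The difference between HEM and HOM was not tested. For Ramp1 the T3 ratio of transgenic and NON pairs differed by 0.32 ± 0.075 (adjusted p = 0.00503, edgeR), and it was the only 1 of 43 genes (2.33%) to pass in that test. Akt1 came next, at 0.22 ± 0.067 (adjusted p = 0.0501). None of the 5 hypothalamic genes passed in that test. Hdc stood at 0.70 ± 0.23 (adjusted p = 0.0606), Mch at 0.64 ± 0.25 (adjusted p = 0.0899), Pomc at 0.64 ± 0.43 (adjusted p = 0.509), Agrp at 0.096 ± 0.30 and Hcrt at -0.10 ± 0.35, and their part in the Ramp1 difference was not tested. Transgenic right pools at T3 were the deeper ones in 6 of 10 pairs, with a right over left ratio of 0.910, and 9 of the 10 pairs were collected in the morning, against 2 of 5 NON pairs.

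**Figure D4:**
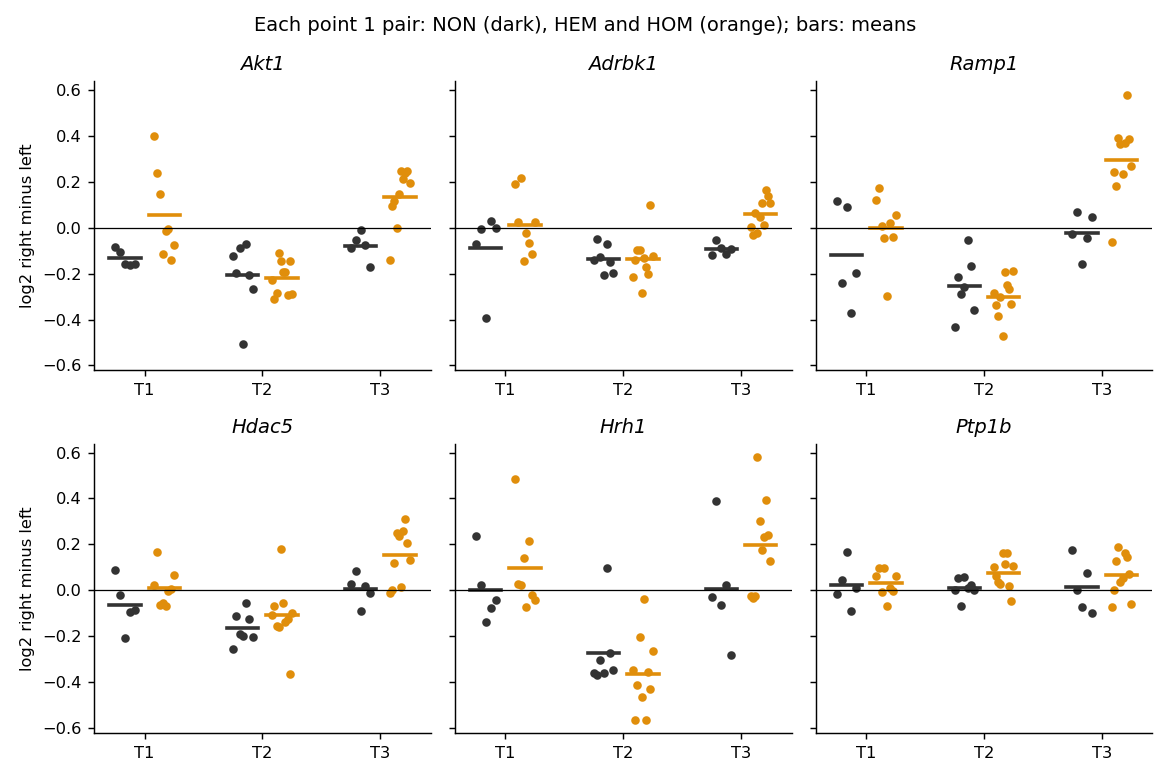
Log2 right minus left cortex of each pair for the same 6 genes, at T1, T2 and T3, in NON pairs (dark; 5, 7 and 5) and in HEM and HOM pairs (orange; 8, 10 and 10), with bars at the means. At T2, the Akt1 and Ramp1 points of both kinds of mice all lie below 0, whereas the orange means of Ramp1, Hdac5, Akt1 and Hrh1 lie above 0 at T3.

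Left and right cortex of a pair were also correlated across pools for some of the genes, 11 of 43 within time points and 2 of 43 when hour of collection was taken into account as well. Each gene was taken as its deviation from the time point mean of its side, on a log2 scale with a pseudocount of 0.5, and left was correlated with right over the 17 pairs (two-sided permutation test within time points with 100000 draws, adjusted over the 43 genes). The correlation passed for 11 of 43 genes (25.6%), all positive, with 17 at an unadjusted p below 0.05, and r was positive for 37 genes. Of the 17, Amylin alone was negative (r = -0.52, rho = -0.53; permutation p = 0.0188 and 0.0325, adjusted p = 0.0576 and 0.0872), and it was at or below background in 31 of 34 pools. The median r was 0.41 over the 36 detected genes and 0.21 over the 7 low ones.

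c-Fos, an immediate early gene induced by neuronal activity, gave the highest correlation. Its left counts were 6952, 7646.5, 4188, 6966 and 10914.5 at T1, and its right counts 8142, 8331.5, 5336, 8213 and 10665 in the same pools. At T2, left counts were 7131, 4255, 6207, 4189, 8375, 13047 and 4259, and right counts 6836, 4095, 7056, 3779.7, 7971, 11618 and 3986. At T3, left counts were 2779.5, 5596, 8149.8, 4141 and 3627, and right counts 3026, 7076, 10929, 4583 and 3299.9. Pools therefore differed several-fold within a time point while the partners stayed close, the highest left pool at T2 (7/8) being the highest on the right as well.

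For c-Fos, Pearson's r was 0.97 (permutation p = 1e-05, the smallest that 100000 draws give; adjusted p = 0.000215) and Spearman's rho was 0.94 (permutation p = 1e-05, adjusted p = 0.000430). Without the 2 pools farthest from the left median, r was 0.95. The standard deviation between pools was 0.54 on the left and 0.57 on the right, on the log2 scale, and that of right minus left was 0.15. The right minus left difference of c-Fos over all pairs did not pass (0.081 ± 0.042, SE; adjusted p = 0.262, edgeR), and the right pool was the higher one in 9 of 17 pairs.

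Irs2 had r = 0.93 and rho = 0.91 (permutation p = 1e-05 and 5e-05, adjusted p = 0.000215 and 0.00108), Npy r = 0.92 and rho = 0.82 (permutation p = 6e-05 and 0.00056, adjusted p = 0.00086 and 0.00482) and Ptp1b r = 0.90 and rho = 0.89 (permutation p = 0.00014 and 0.00021, adjusted p = 0.00151 and 0.00301). Without the 2 farthest pools, r was 0.89, 0.83 and 0.90. Cart, Hdac5, Adrbk1, Akt2, Irs1, Hrh1 and Ins2 passed with r from 0.63 to 0.78, Ins2 being at background in 31 of 34 pools. By Spearman's rho, 10 genes passed the permutation test. Akt2 and Hrh1 were not among them (adjusted p = 0.0599 and 0.0872), and Lepr-b was (adjusted p = 0.0303). Without the 2 farthest pools, r ranged in these genes from 0.50 for Akt2 and 0.52 for Hrh1 to 0.76 for Hdac5. Ramp1 was not correlated between the sides at this number of pairs (r = 0.16, rho = 0.17; permutation p = 0.565 and 0.538, adjusted p = 0.623 and 0.661), nor was Stat3 (r = -0.047, rho = -0.051; permutation p = 0.844 and 0.847, adjusted p = 0.885 and 0.910), whose spread between pools, 0.068 on the left and 0.069 on the right, was less than that of right minus left, 0.099.

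With hour of collection taken into account, a check chosen after seeing the data, fewer genes passed. When deviations were taken from the mean of each time point and collection time, c-Fos kept r = 0.97 (rho = 0.91; permutation p = 0.00011, adjusted p = 0.00473) and Npy r = 0.93 (rho = 0.84; permutation p = 0.00092, adjusted p = 0.0198), and these 2 of the 11 genes still passed. Irs2 then had r = 0.71 (rho = 0.69; permutation p = 0.0369, adjusted p = 0.210) and Ptp1b r = 0.68 (rho = 0.62; permutation p = 0.0496, adjusted p = 0.210).

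**Figure D5:**
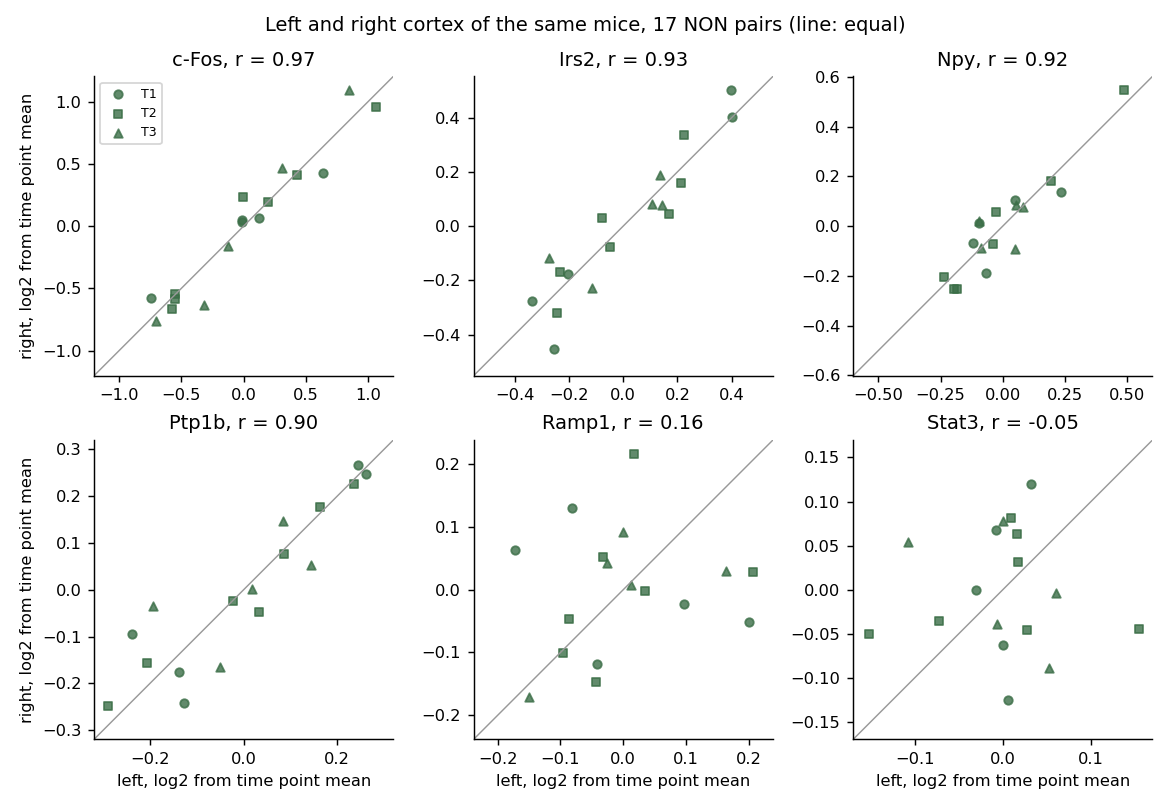
Right against left cortex of 17 NON pairs (circles T1, squares T2, triangles T3), each axis being the log2 normalised count minus the mean of that side at that time point, with a line where both are equal. The c-Fos, Irs2, Npy and Ptp1b points follow the line, with r from 0.97 to 0.90, and the Ramp1 and Stat3 points do not (r = 0.16 and -0.05).

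The labelled tissue was checked with genes of hypothalamic neurons, since the panel held no gene that marks the cortex itself. Hcrt, Mch, Agrp, Pomc and Hdc were low in both cortices. Mch, the most abundant of the 5, had medians of 105 on the left and 105 on the right, against 26423.5 in 18 NON midbrain pools (a block that includes the hypothalamus), which was 251-fold higher. The NON midbrain medians were 29.7-fold higher for Hcrt, 5.29-fold for Pomc, 4.65-fold for Hdc and 4.13-fold for Agrp. No background was subtracted, so the folds of Hcrt and Agrp, the genes most often at background here, are lower bounds. Agrp was at or below background in 10 of 34 cortex pools, Hcrt in 8, Pomc and Hdc in 1 each and Mch in 0.

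The summed level of the 5 genes ranged from 225 to 383 on the left (median 299) and from 233 to 433 on the right (median 295), so the sides overlapped throughout. The sum was higher on the right in 4 of 5 pairs at T1, 3 of 7 at T2 and 0 of 5 at T3. At T3 the left pool was thus the higher one in 5 of 5 pairs. Whether tissue from below the cortex took part in any right against left difference was not tested. In the edgeR fit with reference gene scaling and all pairs, none of the 5 genes was called in any NON comparison. Mch was called higher on the right at T2 when T2 pool 4/13 was left out. In the transgenic pairs, the sum was higher on the right in 6 of 8 at T1, 6 of 10 at T2 and 8 of 10 at T3, the T3 medians being 235 on the left and 299.9 on the right. At T3, Mch was called higher on the right in these pairs, as given above, and the others stood at 0.26 for Hdc (adjusted p = 0.155, edgeR), 0.44 for Pomc, 0.21 for Agrp and 0.19 for Hcrt. The hypothalamic genes thus lay in the same direction as the T3 calls of Ramp1, Hdac5, Akt1, Irs2 and Hrh1 in the transgenic pairs, and their part in those calls was not tested.

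A further 2 NON cortex pools of T3, left pool 11 and right pool 10, held different mice and had no partner. Their totals were 128489 and 131822. Left pool 11 had 13098 normalised counts of Akt1 and right pool 10 had 10941; for Adrbk1 the values were 13692 and 10847, and for Ramp1 13640.3 and 11327. Hdac5 had 11612.5 and 9876.5, Hrh1 1692 and 1291.5, Ptp1b 6845.0 and 5583, and c-Fos 9495 and 5868. The reference level was 3083 in left pool 11 and 3702 in right pool 10, and with 1 pool a side from different mice no right against left comparison was made.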

How the data were processed

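Counts of 43 target genes, 3 reference genes, 6 positive and 8 negative control probes were deposited by the authors as raw nCounter counts, whole numbers with no normalisation, in 1 table of 192 pools. The 34 paired NON pools and 56 paired HEM and HOM pools were taken by their labels, and 0 columns of the table belonged to no sample. Pairing comes from the series text, in which a pool number names the mice pooled. Pools of a group were separate mice or mixtures of them. No 2 of 92 pool pairs held the same counts. The members and gene lists were chosen with earlier results of these data known.

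The counts were fitted in edgeR 4.0.16 (R 4.3.3) by quasi-likelihood, with library sizes set to each pool's geometric mean over the reference genes, the pair as a block and right minus left terms per time point, and p-values were adjusted over 43 genes (Benjamini-Hochberg) with 0.05 as threshold. NON pairs and all 45 pairs were fitted separately. The fit was tested on simulated data, but the outcome is not given here and no result rests on it. Background was the mean plus 2 SD of a pool's negative controls. Exact sign-flip and permutation tests used SciPy 1.17.1. Alternatives were TMM, positive controls as scale, each reference gene left out, negative control subtraction, a low count filter, DESeq2 1.42.0, limma 3.58.1 on log2(normalised count + 1), no pair block, depth as covariate, and each pair left out. Intervals and errors cover the spread between pools. Per-pool values were printed for all time points or for 1 of them, with ranges for the rest, for each gene called in a planned comparison, and in each gene group the genes with the largest and the smallest ratio over all NON pairs were named; c-Fos, Irs2, Npy and Ptp1b in the correlations were the 4 highest, chosen after their values were seen. Probe sequences were not used here. Values of single reference genes are not given by name.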

Additional observations from a re-analysis of the deposited data

Results flagged for a closer look

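Within the 6 groups of pools by side and time point, and in the right minus left values of each time point, 66 sets of values were tested for a lone extreme by Dixon's criterion, and 4 were found, where chance gives about 1 in 20, or 3.3 of 66, so that their number was close to that of chance. The Adrbk1 log2 right minus left value of T1 pool 4/5, -0.40, lay apart from the other 4 T1 pairs. The Adrbk1 normalised count of the T3 left pool 1, 13769, was high among 5 pools. The Ramp1 count of the T2 left pool 1/3, 10448.7, was high among 7 pools. The Hrh1 log2 right minus left value of T2 pool 6/9, 0.099, was the only positive one of 7.

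The right minus left ratio of Ramp1 differed between transgenic and NON pairs at T3 (adjusted p = 0.00503, edgeR quasi-likelihood test of the difference, chosen after seeing the data), with 0.30 in 10 transgenic pairs, higher on the right in 9 of 10, and -0.023 in 5 NON pairs. None of 5 genes of hypothalamic neurons passed in that test, with 0.70 for Hdc (adjusted p = 0.0606), 0.64 for Mch (adjusted p = 0.0899), 0.64 for Pomc, 0.096 for Agrp and -0.10 for Hcrt. These genes, hour of collection, depth and run were not tested as parts of this difference.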

How the results depend on the processing

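The lower Akt1 and Adrbk1 level in the right cortex over all NON pairs kept its direction under each alternative except the positive control scale, and kept its call on leaving out any 1 of 17 pairs. Of the 12 alternatives, 11 kept the Akt1 call, 10 that of Adrbk1, 9 that of Ramp1 and 6 that of Hdac5. The count of called genes over all NON pairs, 4, became 0 with positive controls as scale, 2 without the 2nd reference gene, 2 with no replicate block and 0 with an absolute log2 ratio above 1 required, and was 5 by the exact sign-flip permutation test (adjusted p = 0.0483 for Irs2). It ran from 3 to 6 on leaving out 1 pair. At T2, the count of 5 became 42 with positive controls, 9 with DESeq2, 9 with depth as covariate, 2 with no replicate block, with and without the 2 unpaired pools (2), and 4 to 9 on leaving out 1 pair (9 without T1 pool 4/5, 8 without T2 pool 4/13 or T3 pool 1). The T2 call of Adrbk1 was lost with TMM and without pool 5/10, 7/8 or 11/14, and those of Adrbk1, Hdac5 and Hrh1 with no replicate block (adjusted p = 0.172, 0.125 and 0.192), with and without the unpaired pools. The T1 and T3 counts were 0 to 1 on leaving out 1 pair (1 at T1 without T2 pool 5/10, and 1 at T3 without T3 pool 8/9). The difference between time points, 0 genes, gave 2 with TMM, 1 with positive controls and 1 with DESeq2, and 0 to 1 on leaving out 1 pair (1 without T3 pool 3/4).

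With positive controls as scale, the log2 ratios over all NON pairs turned to 0.19 for Akt1, 0.23 for Adrbk1, 0.19 for Ramp1 and 0.25 for Hdac5, and at T2 to 0.50, 0.58, 0.46 and 0.55, with 0.44 for Hrh1; that scale moved the median of all genes by 0.34 and 0.70. In HEM and HOM pairs, the count of 1 became 0 with TMM, positive controls, the 3rd reference gene left out or no replicate block, 2 without the 2nd reference gene, 0 at T1, 12 at T2 and 6 at T3 alone, and 1 to 3 on leaving out 1 pair (3 without T1 HOM 1/5, 2 without T2 HEM 9). The transgenic minus NON count of 0 became 1 at T3 alone and stayed at 0 to 0 on leaving out 1 pair. The T2 depth log2 ratio of 0.49 ran from 0.43 to 0.53 on leaving out 1 pair. The 11 genes correlated between sides became 2 within time point and collection time. The paired fit without the block changed no other direction of the 4 genes, and the cause of the changes was not tested. Low counts limit the hormone and calcitonin receptor probes at every time point, and the T3 pools most of all.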
